A study of Mus musculus with 11 samples.

Results

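The liver-enriched transcription factors described here are 8 genes, *Hnf4a*, *Cebpa*, *Cebpb*, *Foxa1*, *Foxa2*, *Foxa3*, *Onecut1* and *Prox1*. They were taken by name, with earlier results of these data known, from the 24849 genes of a count table of AML12 cells. Each of them had a single entry in the table, and all 8 passed the filter on low counts in every comparison. AML12 is a line of mouse hepatocytes that carries a transforming growth factor alpha transgene, and all of its derivatives share that background. RNA selected for poly(A) tails was sequenced from 11 libraries of 3 lines. The 4 KO libraries (numbered 5, 6, 7 and 8) came from cells in which *Txndc5*, the gene of a thioredoxin-domain protein of the endoplasmic reticulum, was targeted with CRISPR/Cas9 and replaced by homology-directed repair with a puromycin resistance gene. The labels call the same genotype a knockdown, and how many clones the KO libraries represent is not given. The 3 WT libraries (5-6, 7 and 8) came from the parental line, which did not go through that selection, so the loss of *Txndc5* and the selection cannot be told apart. The 4 KI libraries (5, 6, 7 and 8) came from cells described as overexpressing TXNDC5 from the ROSA26 safe-harbour locus. The culture medium described for the line held serum, dexamethasone and insulin, transferrin and selenium. Nothing says that replicates were separate cultures, so p-values measure the spread between these libraries, which may be technical.

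Liver-enriched transcription factors bind the promoters and enhancers of hepatocyte genes together, and it is their combination, more than any single factor, that sets the hepatocyte programme. They also bind each other's regulatory regions, so that they form a network of mutual activation. HNF4A is an orphan nuclear receptor at the centre of that network, the C/EBP proteins are leucine zipper factors of metabolism and the acute phase, the FOXA proteins are pioneer factors that open closed chromatin, and ONECUT1 and PROX1 act early in hepatoblasts and persist in the adult organ.

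Library depth lay between 29840366 and 38422243 counts. The counts of *Txndc5* itself were 287 to 430 for KO and 3299 to 4046 for WT libraries, and it was 14.1-fold lower in KO cells (log2 fold change -3.81 ± 0.15 (SE), adjusted p = 4.09e-08 by edgeR's quasi-likelihood test). In the KI libraries it had levels of 158 to 180 CPM (read counts relative to library size, scaled by edgeR's TMM factors), all above the 138 to 147 CPM of the WT libraries, but the difference was not called (0.24 ± 0.12, adjusted p = 0.136). Whether a transcript of the construct would be counted on the mouse gene is not given, so the KI libraries are described by their label. WT 8 and KO 5 stood apart from their groups. The counts of WT 8 differed from those of the other WT libraries with chi-square values of 169 and 125 per gene, against 56.5 for the remaining pair, and those of KO 5 from the other KO libraries with 81.1 to 118, against 17.1 to 43.2 for the remaining pairs. In the KI group, KI 7 differed from the others with 64.1 to 143, against 55.9 to 61.7 for the remaining pairs. All these values scale the libraries by their totals, without TMM. The calls of the members and the counts of the gene lists are also given without WT 8 and without KO 5. The gene lists are not given without KI 7. Hepatocyte markers were present in every library and summed to 9451 to 11322 CPM in KO, 7275 to 9291 in WT and 8429 to 10019 in KI libraries. *Alb* (160 to 4767 CPM in all libraries), *Apoa1* and *Apob* were higher in KO than in WT. *Trf* (1219 to 1450 CPM in KO, 2319 to 4218 in WT) and *Ttr* (393 to 533 in KO, 613 to 1042 in WT) were lower. The asialoglycoprotein receptor genes *Asgr1* and *Asgr2* were at or under 0.446 CPM in all libraries. The biliary markers summed to 1374 to 1530 CPM in KO, 3049 to 4418 in WT and 2643 to 3129 in KI libraries, and 1 of the 7, *Epcam*, was at or under 3 counts in every library. The lower sum in KO was carried by *Spp1* (211 to 282 CPM in KO, 1945 to 3288 in WT), whereas *Krt19* was higher there (1035 to 1175 CPM in KO, 653 to 862 in WT). Among the mesenchymal markers, which summed to 1228 to 1343, 723 to 935 and 730 to 844 CPM in the same order and consisted mostly of *Vim*, 5 of 11 were at or under 3 counts in every library. Macrophage markers summed to 1.32 to 2.21 CPM in KO, 6.73 to 9.20 in WT and 2.52 to 5.66 in KI libraries, with *Adgre1* and *Clec4f* at or under 3 counts in all, and endothelial and stellate markers reached at most 0.425 and 0.639 CPM. These marker sums moved with the lines, and their part in the results below was not tested. In bulk RNA, fewer cells that express a gene and less of its RNA per cell cannot be told apart.

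In KO against WT cells, 4 of the 8 factors rose and 3 fell. *Foxa1*, *Cebpa*, *Hnf4a* and *Foxa2* were higher, *Onecut1*, *Foxa3* and *Prox1* were lower, and *Cebpb* was not called. These 7 calls by edgeR's quasi-likelihood test (Benjamini-Hochberg adjusted p under 0.05) stand beside 55.1% of the 13359 genes tested in that comparison, so a call alone was common. Of all genes, 26.7% were higher and 28.4% lower in KO cells. The median absolute log2 fold change was 1.53 over the 8 members and 0.57 over all genes. The members were chosen with earlier results of these data known, so this difference does not set them apart. In absolute change, *Foxa2*, *Prox1* and *Cebpb* stood at percentiles 46.5, 45.2 and 21.2 of all genes. The lines did not overlap in 6 members, and in 55.3% of all genes. In KI against WT cells, 3 members were called, *Foxa1* higher (beside 21.2% of all genes) and *Foxa3* and *Prox1* lower (beside 21% of all genes), together beside 42.3% of the 13534 genes tested. The lines did not overlap for these 3 members, beside 44.7% of all genes, and the median absolute log2 fold change was 0.28 over the members and 0.46 over all genes. In KO against KI cells, 6 members were called, 4 higher (*Cebpa*, *Hnf4a*, *Foxa1* and *Foxa2*) and 2 lower (*Onecut1* and *Foxa3*), beside 54% of the 13269 genes tested (27% in each direction). The same 6 did not overlap, beside 48.6% of all genes, and the median absolute log2 fold change was 0.69 over the members and 0.40 over all genes. The comparisons with WT share the WT libraries, so they are not independent of each other.

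**Figure D1:**
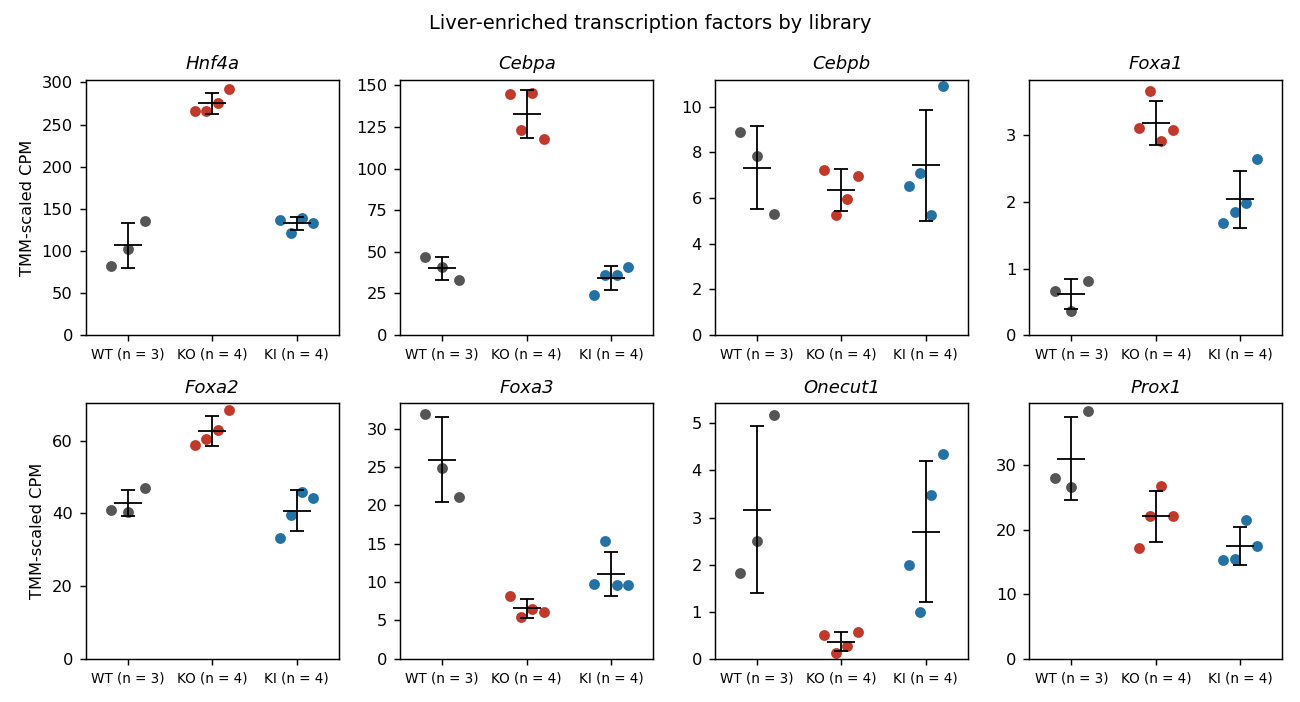
Level of each factor in every library, as TMM-scaled CPM on a linear axis from 0. Points are libraries (3 WT, 4 KO, 4 KI), the long bar is the mean and the short bars are 1 SD. *Hnf4a*, *Cebpa* and *Foxa2* are higher in all 4 KO libraries than in any other, *Foxa1* is ordered KO, KI, WT from the top and *Foxa3* WT, KI, KO, each without overlap.

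*Hnf4a* (GRCm38 chr2:163506808-163572910, plus strand) had the highest mean level per kilobase of exon of the 8 factors in every line. It counted 9487, 8999, 9202 and 12714 reads in KO libraries 5 to 8, or 266, 266, 276 and 293 CPM. The WT libraries 5-6, 7 and 8 held 1840, 2541 and 3814 reads, or 82.0, 103 and 135 CPM, and the KI libraries 4887, 4398, 5334 and 4369, or 137, 121, 139 and 133 CPM. Every KO library lay above every other library, whereas the KI libraries overlapped with WT 8. The mRNA level was 2.55-fold higher in KO than in WT cells (log2 fold change 1.35 ± 0.17 (SE), adjusted p = 6.3e-05) and 2.08-fold higher than in KI cells (1.06 ± 0.08, adjusted p = 4.53e-08) by edgeR's quasi-likelihood test. Between KI and WT cells it was not called (0.31 ± 0.16, adjusted p = 0.142). Without WT 8, the highest WT library for this gene, that last difference was called (0.52, adjusted p = 0.00454), as it was with library totals in place of TMM (0.61, adjusted p = 0.0338), and over all alternatives its adjusted p ranged from 0.00454 to 0.432. The rise in KO cells was 1.58 without WT 8.

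*Hnf4a* is transcribed from an upstream and a downstream start, and counts per gene do not separate their transcripts. The bases before the upstream start are shown because they hold a word of ONECUT factors, which are known to bind promoters of this gene, and *Onecut1* is itself one of the 8. The RefSeq sequence (GRCm38.p6, chr2:163506607-163506807, plus strand) is given 5′ to 3′ with the ONECUT word (ATTGATT, here on the minus strand) in capitals, up to the base before the first annotated exon.
*Hnf4a*, upstream start: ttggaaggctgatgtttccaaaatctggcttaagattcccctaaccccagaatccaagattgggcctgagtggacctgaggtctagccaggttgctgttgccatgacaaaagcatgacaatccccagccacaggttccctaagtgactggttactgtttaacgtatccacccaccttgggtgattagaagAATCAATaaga
This word and the others named below were searched on both strands in the 250 bases before each start, and were set with these windows in view. Of 32851 such windows of all genes, 2.61% hold the ONECUT word. The window before the downstream start, whose first base already lies within an annotated exon of the gene, held none of the words searched. A match is a description of the letters and says nothing of binding in these cells.

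*Cebpa* (chr7:35119293-35121928, plus strand) encodes a leucine zipper factor that drives metabolic genes and restrains proliferation of hepatocytes. Its counts were 5166, 4164, 4842 and 5114 in the KO libraries, or 145, 123, 145 and 118 CPM. They were 1051, 1010 and 934 in the WT libraries, or 46.9, 40.8 and 33.1 CPM, and 852, 1315, 1371 and 1335 in the KI libraries, or 23.8, 36.3, 35.8 and 40.6 CPM. The KO libraries stood apart from all others, while WT and KI libraries overlapped. The level was 3.25-fold higher in KO than in WT cells (log2 fold change 1.70 ± 0.15, adjusted p = 7.44e-06, edgeR) and 3.90-fold higher than in KI cells (1.96 ± 0.14, adjusted p = 1.99e-08). KI and WT cells gave -0.24 ± 0.19 (adjusted p = 0.326).

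*Cebpb* (chr2:167688915-167690418, plus strand), the C/EBP factor of the acute phase and of regenerating liver, was not called in any of the 3 comparisons. It stood at 7.23, 5.27, 5.94 and 6.97 CPM in the KO libraries, 8.87, 7.83 and 5.31 in WT and 6.52, 7.09, 5.25 and 10.9 in KI, from 150 to 358 counts per library. All 3 ranges overlapped. The log2 fold changes were -0.22 ± 0.22 for KO against WT (adjusted p = 0.405), 0.02 ± 0.26 for KI against WT (adjusted p = 0.963) and -0.22 ± 0.20 for KO against KI (adjusted p = 0.389), all by edgeR. The annotation places 312 exon bases of *Cebpb* on the opposite strand of *Tmem189*, which had up to 1480 counts, and whether counting used the strand is not given, so reads of both genes may be mixed. The ratio of the C/EBP genes within a library needs no scaling between libraries. There were 16.9 to 24.5 *Cebpa* counts per *Cebpb* count in the KO libraries, 5.21 to 6.23 in WT and 3.66 to 6.82 in KI libraries.

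The 3 FOXA genes moved in different directions. *Foxa1* (chr12:57540628-57546916, minus strand), the pioneer factor also known from breast and prostate, had 111, 124, 97 and 134 counts in the KO libraries, or 3.11, 3.67, 2.91 and 3.08 CPM. It had only 15, 9 and 23 counts in the WT libraries, or 0.669, 0.363 and 0.814 CPM, and 60, 67, 76 and 87 in KI, or 1.68, 1.85, 1.99 and 2.65 CPM. No library of one line overlapped with another line. It was 4.73-fold higher in KO than in WT cells (log2 fold change 2.24 ± 0.34, adjusted p = 0.000239, edgeR) and 3.09-fold higher in KI than in WT cells (1.63 ± 0.40, adjusted p = 0.00638). The step from KI to KO was smaller (0.64 ± 0.23, adjusted p = 0.0304) and lost its call in 6 of 16 alternative analyses, 4 of which left out a library (KO 6, KI 5, KI 6 or KI 7, with 0.57, 0.56, 0.59 and 0.63), with adjusted p from 0.0119 to 0.087 over all 16. limma on log2(CPM + 1), which compresses low values, gave a smaller rise in KO and KI against WT (1.36 and 0.89), both still called.

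*Foxa2* (chr2:148042877-148046969, minus strand), needed for glucose and bile acid homeostasis, changed by a smaller factor. Its KO libraries held 59.0, 60.4, 62.9 and 68.5 CPM, from 2041 to 2977 counts. The WT libraries held 41.1, 40.5 and 47.1 CPM, and the KI libraries 33.3, 39.6, 45.9 and 44.2. The KO range lay above both others, which overlapped. KO cells exceeded WT cells 1.44-fold (log2 fold change 0.53 ± 0.12, adjusted p = 0.00307, edgeR) and KI cells 1.54-fold (0.62 ± 0.11, adjusted p = 0.000171). The first of these depends in size on the scaling and was 0.93 with library totals. KI against WT gave -0.07 ± 0.15 (adjusted p = 0.715).

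*Foxa3* (chr7:19013284-19023538, minus strand), which takes part in glucose homeostasis during fasting, went the other way. The KO libraries held 294, 184, 218 and 263 reads of it (8.24, 5.45, 6.54 and 6.05 CPM). The WT libraries had 717, 615 and 595 (32.0, 24.8 and 21.1 CPM), and the KI libraries 347, 557, 366 and 317 (9.71, 15.4, 9.57 and 9.64 CPM). The 3 lines were ordered WT, KI and KO from the top, with no overlap, although KI 6 lay well above the other KI libraries. *Foxa3* was 3.97-fold lower in KO than in WT cells (log2 fold change -1.99 ± 0.19, adjusted p = 1.09e-05, edgeR), 2.33-fold lower in KI than in WT cells (-1.22 ± 0.21, adjusted p = 0.000525) and 1.67-fold lower in KO than in KI cells (-0.74 ± 0.18, adjusted p = 0.00292).

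Within a library, and per kilobase of exon, *Foxa3* made up 34.0 to 47.2% of the FOXA reads in WT, 19.0 to 30.4% in KI and 9.06 to 13.6% in KO cells. The share of *Foxa2* ran the other way, from 52.2 to 65.2% in WT to 67.4 to 78.5% in KI and 83.3 to 88.1% in KO cells. *Foxa1* never exceeded 3.77%. *Foxa2* held the largest share in all 11 libraries. The sequences before the starts of the 3 genes are shown because the family members parted in direction. All are RefSeq, GRCm38.p6, minus strand, 5′ to 3′. Capitals mark a word of FOXA (TGTTTAC or TGTTTGC) in *Foxa1*, there as its reverse complement, and of ONECUT (ATTGATT) in *Foxa2*, as printed. The *Foxa1* stretch, which also stops at an annotated exon, is chr12:57546122-57546361, that of the most upstream of 3 *Foxa2* starts chr2:148046970-148047219, and that of *Foxa3* chr7:19023540-19023789.
*Foxa1*: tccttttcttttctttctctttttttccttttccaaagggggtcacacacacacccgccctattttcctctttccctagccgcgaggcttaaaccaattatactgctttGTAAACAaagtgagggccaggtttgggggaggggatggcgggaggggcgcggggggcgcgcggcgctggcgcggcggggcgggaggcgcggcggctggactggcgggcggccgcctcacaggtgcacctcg
*Foxa2*, most upstream start: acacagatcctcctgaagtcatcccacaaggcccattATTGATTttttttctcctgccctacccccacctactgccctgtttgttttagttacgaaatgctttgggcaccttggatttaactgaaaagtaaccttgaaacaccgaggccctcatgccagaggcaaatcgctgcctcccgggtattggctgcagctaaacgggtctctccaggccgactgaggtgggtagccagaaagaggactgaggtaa
*Foxa3*: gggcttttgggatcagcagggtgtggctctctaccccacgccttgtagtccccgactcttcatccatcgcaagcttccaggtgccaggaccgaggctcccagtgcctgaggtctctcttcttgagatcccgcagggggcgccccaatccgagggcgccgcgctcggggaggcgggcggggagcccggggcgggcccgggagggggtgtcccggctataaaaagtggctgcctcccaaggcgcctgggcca
The FOXA words stand in 7.29% of all windows. None of the words searched, which also included those of HNF4 (CAAAGTCCA or CAAAGGTCA, 0.807% of windows) and C/EBP (TTGCNNAA, 9.56%), was found before *Foxa3* or at the other 2 *Foxa2* starts. All 8 members matched the RefSeq promoter table, with 12 windows in all, and of the windows not yet named only the second of *Prox1* held a word, that of FOXA.

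**Figure D2:**
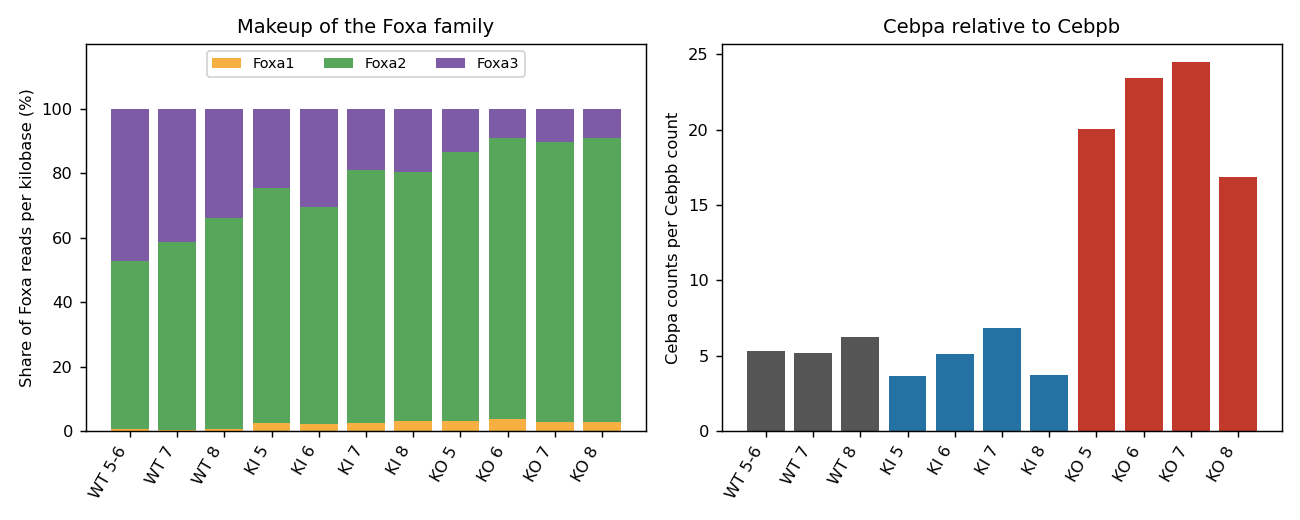
Ratios of the factors within each library. Left, share of *Foxa1*, *Foxa2* and *Foxa3* in the FOXA reads per kilobase of exon (%), stacked for each library. Right, *Cebpa* counts per *Cebpb* count. The *Foxa3* share is 34.0 to 47.2% in WT, 19.0 to 30.4% in KI and 9.06 to 13.6% in KO libraries, and the ratio at right is at least 16.9 in KO and at most 6.82 in the other libraries.

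*Onecut1* (chr9:74861921-74891781, plus strand), also known as hepatocyte nuclear factor 6 and needed for hepatoblast and biliary differentiation, fell in KO against WT and in KO against KI. Its counts were 18, 4, 9 and 25 in the KO libraries, which is 0.505, 0.118, 0.270 and 0.575 CPM. They were 41, 62 and 146 in WT (1.83, 2.50 and 5.17 CPM) and 71, 36, 133 and 143 in KI (1.99, 0.992, 3.48 and 4.35 CPM). All KO libraries lay below all others, and WT and KI libraries spread widely and overlapped. *Onecut1* was 7.54-fold lower in KO than in WT cells (log2 fold change -2.91 ± 0.51, adjusted p = 0.000674, edgeR) and 6.43-fold lower than in KI cells (-2.68 ± 0.49, adjusted p = 0.00031). With so few counts the size was uncertain, and limma on log2(CPM + 1) gave -1.53 and -1.39, since that pseudocount compresses low values. KI against WT gave -0.23 ± 0.46 (adjusted p = 0.708), and 0.31 without WT 8. The annotation places 2171 exon bases of the noncoding *Gm20649* on the same strand within *Onecut1*, and reads of both cannot be told apart there.

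*Prox1* (chr1:190118035-190170714, minus strand), a homeobox gene of hepatoblast migration that acts as a corepressor of HNF4A, was lower in both engineered lines. Its levels were 17.2, 22.1, 26.7 and 22.2 CPM in the KO libraries, 28.0, 26.7 and 38.4 in WT and 15.2, 15.4, 21.5 and 17.5 in KI, from 545 to 1084 counts. The KI libraries all lay below the WT libraries, whereas KO 7 overlapped with WT 7. Against WT, KI cells gave a log2 fold change of -0.83 ± 0.18 (adjusted p = 0.00252, edgeR) and KO cells -0.51 ± 0.18 (adjusted p = 0.03). The fall in KO cells was not called without WT 8 (-0.30, adjusted p = 0.131), without KO 5, KO 6 or KO 8 (-0.41, -0.51 and -0.51, adjusted p = 0.0746, 0.0645 and 0.0584) or with library totals (-0.12, adjusted p = 0.681), and its adjusted p ranged from 0.0146 to 0.681 over all alternatives. The fall in KI cells was not called with library totals (-0.52, adjusted p = 0.0855, range 9.75e-05 to 0.0855). KO against KI was not called (0.34 ± 0.15, adjusted p = 0.0643). The *Prox1os* antisense gene, whose exons overlap with those of *Prox1* by 133 bases, and the antisense *Hnf4aos* were not analysed here.

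**Figure D3:**
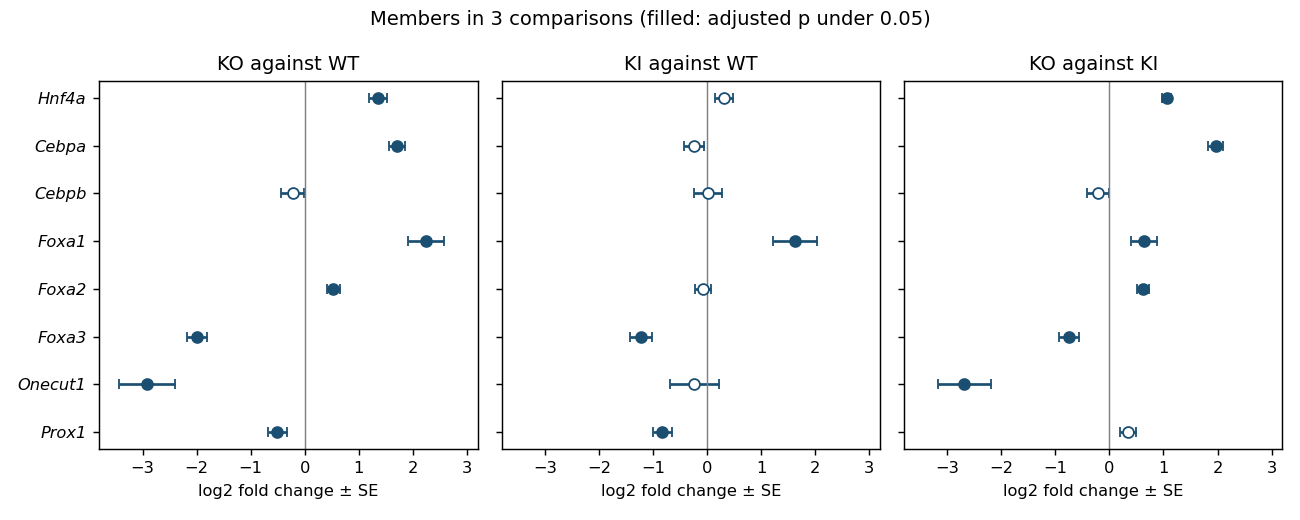
log2 fold change (edgeR) of each factor in the 3 comparisons, with bars of 1 SE. Filled points have an adjusted p under 0.05 and open points do not. In KO against WT, 4 factors lie above 0 and 3 below with filled points, in KI against WT only *Foxa1*, *Foxa3* and *Prox1* are filled, and *Cebpb* is open in all 3 panels.

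Without WT 8, the calls against WT stood except that of *Prox1* in KO cells. KO cells gave 1.61 for *Cebpa*, 2.51 for *Foxa1*, 0.63 for *Foxa2*, -2.09 for *Foxa3* and -2.36 for *Onecut1*, and KI cells 1.87 for *Foxa1*, -1.35 for *Foxa3* and -0.65 for *Prox1*. Without KO 5, the calls of *Hnf4a*, *Cebpa*, *Foxa1*, *Foxa2*, *Foxa3* and *Onecut1* stood in both comparisons of KO cells, with 1.37, 1.66, 2.25, 0.56, -2.12 and -3.06 against WT. *Prox1* lost its call against WT and gained one against KI cells (0.44, adjusted p = 0.017, range 0.0152 to 0.22 over its alternatives).

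Relative to each other, and per kilobase of exon, the factors kept *Hnf4a* first by its mean in each line. In WT cells the order by mean level was *Hnf4a* (22.1 CPM per kilobase), *Foxa2* (18.1), *Cebpa* (15.3), *Foxa3* (12.7), *Cebpb* (4.88), *Prox1* (3.70), *Onecut1* (0.770) and *Foxa1* (0.185). The first 4 of these overlapped with their neighbours over the WT libraries, as did *Cebpb* with *Prox1*. In KO cells *Cebpa* came second (50.4 CPM per kilobase after 57.0 for *Hnf4a*), above *Foxa2* (26.5), with ranges of *Hnf4a* and *Cebpa* that just met at 55.1. *Foxa3* fell (3.23) behind *Cebpb* (4.23), and these neighbours overlapped. *Onecut1* was last in KO cells (0.0893), whereas *Foxa1* was last in WT and in KI cells (0.613), in the latter with overlap with *Onecut1* (0.657). The KI order was that of the WT cells.

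The position of the genes was also examined, because the median of all genes on a chromosome differed between KO and WT cells. *Cebpa* and *Foxa3* lie on chromosome 7, whose 931 tested genes had a median log2 fold change of 0.53, and they went in opposite directions. *Hnf4a*, *Cebpb* and *Foxa2* lie on chromosome 2, with a median of 0.27 over 962 genes. Within 1 Mb of *Hnf4a* the median was 0.47 over 25 genes, and within 1 Mb of *Cebpa* 0.79 over 20 genes, both less than the change of the factor itself (1.35 and 1.70). Near *Cebpb* it was 0.57 over 20 genes, near *Foxa3* 0.40 over 46 and near *Foxa2* 0.28 over 6. Chromosome 12, which holds *Foxa1*, had a median of -0.35, against a rise of *Foxa1*, and chromosomes 9 and 1, which hold *Onecut1* and *Prox1*, had medians of -0.04 and -0.10. In KI against WT, chromosomes 2 and 7 had medians of -0.09 and 0.10, and in KO against KI of 0.39 and 0.43 to 0.44. What part of a member's change goes with its chromosome was not tested.

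The genes most like each factor over the 11 libraries were taken by the root mean square difference of centred log2 CPM among 10046 or 10047 candidates. *Hnf4a* was closest to *Trp53inp2* (0.093) and to *Nr2f2* (0.095), the gene of the nuclear receptor COUP-TFII, with a range of *Hnf4a* itself of 1.83. *Foxa2* was closest to *Zfp710* (0.098) and *Tbc1d20* (0.107), and *Prox1* to *Kif13b* (0.138) and *Fam122a* (0.163). *Cebpb* was closest to *Efcab7* (0.165) and *Hace1* (0.168), *Foxa3* to *Aldh3b1* (0.194) and *Galk1* (0.195), *Cebpa* to *Sdf2l1* (0.233) and *Aim2* (0.234) and *Foxa1* to *Ska3* and *Tmco4* (0.262 each). *Naip6* was among the 2 nearest to *Onecut1*, at a larger distance (0.628).

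Other liver transcription factors rose and fell in KO cells. Of 31 listed, 25 were tested, and in KO against WT 8 were higher, 8 lower and 9 not called, beside 55.1% of all genes called, with a median log2 fold change of 0.25 (-0.03 over all genes). Without WT 8, 11 were higher and 6 lower, beside 8449 of 13664 genes called (7364 of 13359 with it). Without KO 5, 7 were higher and 7 lower, beside 6927 of 13252 genes called. By the rule for naming genes, the genes named were *Atf5*, a leucine zipper factor of stress responses (3.43 ± 0.14, from 28.3 ± 2.99 (SD, n = 3) to 309 ± 28.8 CPM (n = 4)), *Nr2f2* (1.37 ± 0.17), *Cebpg*, a dimer partner of other C/EBP factors (1.15 ± 0.13), and *Ppara*, the nuclear receptor of fatty acid oxidation (-1.81 ± 0.18). In KI against WT, 1 factor was higher, 8 lower and 16 not called (median -0.32, all genes -0.02), beside 42.3% of all genes called. Without WT 8, 3 were higher, 10 lower and 12 not called, beside 6969 of 13837 genes called (5722 of 13534 with it). Named by the same rule were *Nr1i2*, the xenobiotic receptor PXR (-2.69 ± 0.26), *Creb3l3* (-1.19 ± 0.27), *Ppara* (-1.12 ± 0.20) and *Tef* (-0.99 ± 0.18). In KO against KI, 14 were higher, 4 lower and 7 not called (median 0.76, all genes 0.00), beside 54% of all genes called. Without KO 5 the numbers were 15, 4 and 6, beside 7230 of 13522 genes called. Named by the rule were *Atf5* (2.53 ± 0.10), *Nr1i2* (2.36 ± 0.23), *Tef* (1.70 ± 0.12) and *Ddit3*, the C/EBP gene of endoplasmic reticulum stress (1.29 ± 0.13). The rule required an adjusted p under 0.05 and groups that did not overlap, so both hold for every gene named here.

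Hepatocyte genes, many of which are known to be bound by these factors, moved in both directions. Of 48 listed, 28 were tested in KO against WT, with 11 higher, 13 lower and 4 not called (median -0.22), beside 55.1% of all genes called. Without WT 8, 10 were higher and 12 lower, beside 8449 of 13664 genes called. Without KO 5, 9 were higher and 13 lower, beside 6927 of 13252 genes called. Named in KO against WT were *Apoa1*, the main apolipoprotein of high-density lipoprotein (3.77 ± 0.25), *Apoh* (3.02 ± 0.30) and *Alb*, the gene of albumin (2.99 ± 0.26, from 373 to 739 CPM in WT to 3589 to 4767 CPM in KO libraries). The rule, which also asked for a mean log2 CPM of 2 or more, named only rises here, although 13 genes of the list were lower. That condition left out larger changes than that of *Alb* in both directions, *Serpina1a* (-3.65 ± 0.43), *Ahsg* (5.76 ± 0.46) and *Cps1* (3.19 ± 0.65). *Apoa1* and *Apoh* had only 31 to 56 and 39 to 70 counts in the WT libraries. They met the condition through the KO libraries (means of 23.1 and 17 CPM, against 1.6 and 2.04 in WT). In KI against WT, 26 were tested, with 4 higher, 11 lower and 11 not called (median -0.73), beside 42.3% of all genes called. Without WT 8, 27 were tested, with 4 higher and 12 lower, beside 6969 of 13837 genes called. Named there were *Hp*, an acute phase protein gene (-3.34 ± 0.17, from 686 to 991 CPM in WT to 73.1 to 86.7 CPM in KI libraries), the glucose transporter gene *Slc2a2* (-1.94 ± 0.16) and the urea cycle gene *Ass1* (-1.45 ± 0.23). In KO against KI, 27 were tested, with 13 higher, 9 lower and 5 not called (median 0.43), beside 54% of all genes called. Without KO 5 the numbers were 12, 10 and 6 of 28, beside 7230 of 13522 genes called. Among genes with a mean log2 CPM of 2 or more, those named were *Apoa1* (4.81 ± 0.27), *Alb* (4.07 ± 0.18), *Ass1* (2.97 ± 0.13) and *Hp* (2.06 ± 0.12). *Apoa1* had only 14 to 38 counts in the KI libraries and met that mean through the KO libraries (23.1 CPM, against 0.778 in KI).

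The counts of cofactors and regulators called against WT depended on WT 8, as did the counts of all genes called. Of 16 tested in KO against WT, 4 were higher, 1 lower and 11 not called (median 0.17), beside 55.1% of all genes called. Without WT 8, 10 were higher, 2 lower and 4 not called (median 0.50), beside 8449 of 13664 genes called (7364 of 13359 with it). Without KO 5 the numbers were 4, 1 and 11, beside 6927 of 13252 genes called. *Trib3*, a pseudokinase gene of the stress response, rose by 1.94 ± 0.15, from 13.2 to 17.8 CPM in WT to 55.6 to 62.6 CPM in KO libraries, and the coactivator genes *Ncoa3* and *Crebbp* rose by 1.59 ± 0.24 and 1.29 ± 0.24. In KI against WT, 1 was higher, 3 lower and 12 not called (median -0.10), beside 42.3% of all genes called. Without WT 8, 5 were higher, 4 lower and 7 not called (median 0.22), beside 6969 of 13837 genes called (5722 of 13534 with it). Named there were *Trib3* at -1.12 ± 0.20 and *Foxo1*, the insulin-regulated forkhead gene, at -0.96 ± 0.22 (-0.63 without WT 8, adjusted p = 0.0135). In KO against KI, 15 were tested, with 7 higher, 1 lower and 7 not called (median 0.28), beside 54% of all genes called. Without KO 5 the numbers were 9, 1 and 5, beside 7230 of 13522 genes called. Named by the rule were *Trib3* (3.08 ± 0.14), *Crebbp* (1.38 ± 0.17), *Ncoa3* (1.37 ± 0.15) and *Foxo1* (1.14 ± 0.18).

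**Figure D4:**
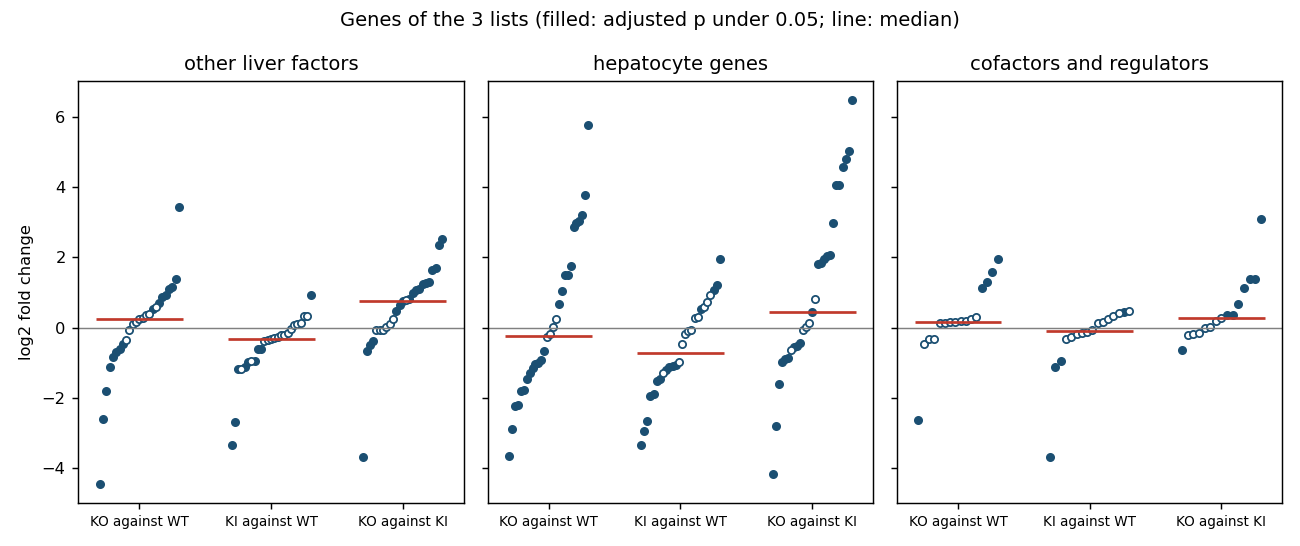
log2 fold change (edgeR) of every tested gene of the 3 lists in the 3 comparisons, sorted within each column. Filled points have an adjusted p under 0.05, and the red line is the list's median. The median of the other liver factors is 0.25 in KO against WT, -0.32 in KI against WT and 0.76 in KO against KI, and that of the cofactors in KI against WT is -0.10, but 0.22 without WT 8.

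All of these changes are relative to the TMM scaling. With library totals in its place, the median of all genes moved from -0.03 to 0.38 in KO against WT and from -0.02 to 0.30 in KI against WT, and the share of rises among the calls from 48.5 to 72.8% and from 50.2 to 76.3%. Newly assembled entries held 18.8 to 25.3% of the counts in the WT libraries, 11.9 to 13.4% in KO and 9.65 to 16.4% in KI libraries. *Hnf4a*, *Cebpa*, *Foxa1*, *Foxa2*, *Foxa3* and *Onecut1* kept their direction and call in KO against WT under both scalings, whereas *Prox1* lost its call.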

How the data were processed

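The 11 poly(A) RNA libraries (4 KO, 3 WT, 4 KI) were grouped by their titles. The deposited table holds raw read counts per gene, which the authors' sequencing provider made by cleaning, mapping and quantifying the reads. The submitters' processing notes name HISAT2, TopHat2, Bowtie2 and StringTie, and the genome build and annotation are not given in the sources used here. FPKM columns (damaged decimals) and the authors' own DESeq2 comparisons were not used. Of 26472 lines, 26462 were used, 2960 of them newly assembled entries. Counts were summed by gene name (24849 genes).

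Genes passing edgeR's filterByExpr were scaled by TMM and tested with edgeR 4.0.16 (robust quasi-likelihood test, R 4.3.3), with only the libraries of the 2 lines compared, Benjamini-Hochberg adjustment over all genes tested and a threshold of 0.05. Levels are CPM with TMM factors over all 11 libraries. DESeq2 1.42.0, limma 3.58.1 on log2(CPM + 1), other scalings, no filter, annotated genes only, a fit of all libraries, a replicate block and leaving out each library were alternatives. The test was checked on simulated counts. Positions and exon lengths come from GENCODE vM21 and promoters from RefSeq (GRCm38.p6). Members and gene lists were chosen with earlier results of these data known. From each list, up to 4 called genes with the largest absolute log2 fold change, a mean log2 CPM of 2 or more and groups that did not overlap were named, and for each member the 2 nearest genes, except for a few named genes whose results are not reported here. Replicate numbers gave little sign of pairing. After each group's mean log CPM was taken off, same-numbered libraries correlated at -0.19 to 0.21 across genes. Against WT, only libraries numbered 7 and 8 were checked. With libraries scaled by their totals, without TMM, every replicate pair differed by more than counting noise (chi-square per gene of at least 17.1).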

Additional observations from a re-analysis of the deposited data

Results flagged for a closer look

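In groups of 4 libraries, a library whose distance from the nearest other exceeded Dixon's critical share of the group's range was examined further. Of 58 groups of the genes described, 4 met it, beside 2.9 that chance gives at 5%. *Foxa3* in library KI 6 (0.976) stood at 15.4 CPM, above the 9.57 to 9.71 CPM of the other KI libraries. *Cebpg* in KI 8 (0.929) stood at 75.4 CPM against 65.1 to 65.8. *Ddit3* in KO 8 (0.889) stood at 24.7 CPM against 20.3 to 20.8. *Tef* in KI 7 (0.874) stood at 16.2 CPM against 12.2 to 12.7. The 4 values come from 4 different libraries. Without KI 6, the log2 fold change of *Foxa3* in KI against WT was -1.42 (adjusted p = 0.000275, edgeR's quasi-likelihood test) and in KO against KI -0.55 (adjusted p = 0.0136), so both calls stood.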

How the results depend on the processing

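Over the 24 tests of members and their alternatives, 337 of 368 values kept direction and side of the threshold, 12 lost the call, 5 gained one and 14 changed sign, the last only in members that were not called. With library totals, the changes of sign were *Cebpb* in KO against WT (0.21) and *Cebpa* (0.11), *Foxa2* (0.25) and *Onecut1* (0.0377) in KI against WT. In KI against WT, *Cebpb* turned to -0.0035 with RLE scaling, -0.0024 with DESeq2, -0.0041 with annotated genes only, -0.0257 with the replicate block, -0.17 without WT 8 and -0.22 without KI 8, within a range of -0.22 to 0.18 over the libraries left out. *Onecut1* turned to 0.31 without WT 8 and 0.04 without KI 6 (range -0.54 to 0.31), *Foxa2* to 0.0116 without KI 5 (range -0.14 to 0.0116), and in KO against KI *Cebpb* to 0.0123 without KI 8 (range -0.35 to 0.0123). All genes named from the lists kept their call and direction without WT 8 and without KO 5, which were chosen for the lists after seeing the data. These genes had been named for large changes that were called without overlap, so their calls say little of the lists as a whole. The counts of the lists did change, as given above. Calls gained were *Hnf4a* in KI against WT with library totals (0.61, adjusted p = 0.0338) and without WT 8, and *Prox1* in KO against KI with the replicate block (0.34, adjusted p = 0.0354, range 0.0152 to 0.22 over its alternatives), without KO 5 (0.44) and without KI 7 (0.46). Apart from those given for *Prox1* and *Foxa1* above, calls were lost by *Prox1* in KI against WT with library totals (-0.52, adjusted p = 0.0855) and by *Foxa1* in KO against KI in the fit of all libraries (0.63, adjusted p = 0.0675) and with the replicate block (0.65, adjusted p = 0.0624). The cause was not tested.

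Members called numbered 6 to 7 in KO against WT, 3 to 4 in KI against WT and 5 to 7 in KO against KI over all alternatives. Genes called ranged from 6161 to 8449, from 4276 to 6969 and from 6383 to 7602. With the replicate number as a block, 8183, 4891 and 6453 genes and 7, 3 and 6 members were called. Whether libraries with the same number share more than that number is not given. Depth limits *Onecut1* in KO cells (4 to 25 counts) and *Foxa1* in WT cells (9 to 23 counts).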
